A study of Mus musculus with 12 samples.

Results

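The TNF family receptors described here are 9 genes, Tnfrsf1a, Tnfrsf1b, Tnfrsf10b, Tnfrsf12a, Tnfrsf21, Tnfrsf19, Ltbr, Fas and Cd40, all found among the 14091 genes of the deposited kidney table. They were picked by name, with earlier results of these data known. Whole-kidney RNA came from male wild-type C57BL/6 mice that entered the study at 10 weeks of age and were fed for 12 weeks. The groups were HFD + hIRI, HFD + sham, ND + hIRI and ND + sham, with 3 libraries each. HFD was a high-fat, high-sucrose diet with 29% fat, 12.6% protein and 46.2% carbohydrates, and ND was a control diet with 10% fat, 20% protein and 70% carbohydrates. hIRI was hepatic ischemia-reperfusion injury: the vessels to part of the liver were clamped for 60 min, and kidneys were taken 6 h after the injury. Sham mice had the procedure without ischemia. The kidney itself was not clamped in any group, and all groups shared strain, sex, genotype, feeding time and the batch given in the labels.

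Receptors of this family sit in the cell membrane and bind trimeric ligands. Those with a death domain, among them Tnfrsf1a, Fas, Tnfrsf10b and Tnfrsf21, can recruit adaptors such as Fadd and Tradd and start caspase-8 or RIP kinase signaling. Those without a death domain, among them Tnfrsf1b, Tnfrsf12a, Ltbr and Cd40, recruit TRAF proteins, which feed into the canonical or the non-canonical NF-kB pathway. In kidney, TNF receptors are studied for their part in tubular cell death and inflammation after injury.

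Between 20874584 and 29451344 reads per library were assigned to genes. All 6 proximal tubule markers were present, led by Slc34a1 and Lrp2, with summed levels of 6840 CPM or more in every library (CPM, the counts of a gene scaled to library size, here after TMM scaling). On the first principal component, which held 54.4% of the variance, ND + hIRI replicate 1 lay at -26.0, within the sham range of -37.9 to -18.5, whereas the other hIRI libraries lay between 15.7 and 97.4, with HFD + hIRI replicate 1 at the top. The library names carry numbers in a lower run of 4 (HFD + sham replicates 1 and 2, ND + hIRI replicate 1 and ND + sham replicate 1) and a higher run of 8. The labels do not say what these numbers stand for.

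The stretches before the start sites of the 6 receptors called in the comparison of hIRI with sham kidneys are shown first, so that the windows of the 5 that rose and of Tnfrsf19, which fell, can be set side by side. Of the 9 receptors, 7 matched the RefSeq table of promoters (GRCm38.p6), with 8 windows because Tnfrsf19 has alternative starts. For Tnfrsf19 only the window of the outer start is shown, and that of the inner start (chr14:61037988-61038237) is not. Each line holds the 250 bases before a start site, 5′ to 3′ on the gene's strand, and capitals mark matches to any of 6 motifs on either strand.
Tnfrsf12a (chr17:23677450-23677699, minus strand): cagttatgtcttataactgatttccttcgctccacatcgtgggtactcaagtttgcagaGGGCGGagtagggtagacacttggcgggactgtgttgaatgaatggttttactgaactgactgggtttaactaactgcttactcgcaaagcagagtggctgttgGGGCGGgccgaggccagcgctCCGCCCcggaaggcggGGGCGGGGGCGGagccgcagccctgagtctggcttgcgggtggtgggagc
Tnfrsf1a (chr6:125349473-125349722, plus strand): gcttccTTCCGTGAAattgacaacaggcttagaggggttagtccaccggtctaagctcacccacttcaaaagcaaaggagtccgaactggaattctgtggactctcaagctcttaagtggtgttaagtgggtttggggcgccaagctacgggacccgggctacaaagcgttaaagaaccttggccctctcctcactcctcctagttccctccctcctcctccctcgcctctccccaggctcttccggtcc
Tnfrsf1b (chr4:145246871-145247120, minus strand): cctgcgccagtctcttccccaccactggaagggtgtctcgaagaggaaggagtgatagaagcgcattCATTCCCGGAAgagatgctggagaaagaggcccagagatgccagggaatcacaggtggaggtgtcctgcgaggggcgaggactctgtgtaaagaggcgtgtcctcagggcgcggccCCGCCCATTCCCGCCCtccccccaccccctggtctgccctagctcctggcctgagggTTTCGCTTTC
Ltbr (chr6:125313886-125314135, minus strand): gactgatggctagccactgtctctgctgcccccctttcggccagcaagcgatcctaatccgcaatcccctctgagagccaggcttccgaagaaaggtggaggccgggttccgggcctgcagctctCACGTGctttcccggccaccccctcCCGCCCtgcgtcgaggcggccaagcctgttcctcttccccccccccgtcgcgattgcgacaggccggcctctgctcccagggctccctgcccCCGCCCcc
Fas (chr19:34290409-34290658, plus strand): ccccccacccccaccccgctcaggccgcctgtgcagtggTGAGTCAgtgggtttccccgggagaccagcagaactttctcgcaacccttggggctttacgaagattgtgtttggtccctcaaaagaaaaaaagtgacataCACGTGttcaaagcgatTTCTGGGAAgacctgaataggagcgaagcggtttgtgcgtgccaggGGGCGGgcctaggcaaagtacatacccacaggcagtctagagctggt
Tnfrsf19 (chr14:61046856-61047105, minus strand): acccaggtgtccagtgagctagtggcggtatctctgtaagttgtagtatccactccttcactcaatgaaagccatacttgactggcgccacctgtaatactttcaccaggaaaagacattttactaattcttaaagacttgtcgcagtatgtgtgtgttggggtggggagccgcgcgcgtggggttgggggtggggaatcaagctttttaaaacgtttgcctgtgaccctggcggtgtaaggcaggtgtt

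In all, 16 motifs were searched on both strands of the 300-base windows (250 bases before and 50 after the start), and the 6 in capitals are every motif with a match in at least 1 of the 8 windows. The GC box GGGCGG was in 6 of 8 windows, against 35.7% of 32851 promoters, and Tnfrsf12a held 5 copies, of which the pair nearest the start lie side by side. The window of the inner start of Tnfrsf19, which is not shown, was among the 6 with a GC box. The STAT motif TTCNNNGAA was in 4 of 8 windows, those of Tnfrsf1a, Tnfrsf1b, Fas and the outer start of Tnfrsf19, against 8.3% of all promoters. In Tnfrsf19 that match runs across the start site and is therefore not in capitals. The E-box CACGTG was also in 4 of 8 windows, those of Ltbr, Fas, Tnfrsf21 and the inner start of Tnfrsf19, against 7.15% of all promoters. The AP-1 motif TGANTCA was in the Fas window alone (7.81% of all promoters), and the TEAD motif GGAATG (14.7%) and the IRF motif (3.44%) were in the Tnfrsf1b window alone. In Tnfrsf1b, a TEAD match overlaps the STAT match, and the other TEAD match overlaps both GC boxes. None of the 8 windows held the NF-kB consensus, which was in 8.46% of all promoters, or the TATA box TATAAA, which was in 13.6%. With 16 motifs and 8 windows, these counts are descriptions of the letters in the windows and were not tested.

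At matched exon length, the receptors spanned a wide range of levels. Tnfrsf21, a death receptor known from neurons, had the highest mean over the 12 libraries, 159 CPM per kb of exon. Tnfrsf12a followed with 108, Tnfrsf1a with 46.3 and Ltbr with 39.7 CPM per kb. Fas averaged 8.63, Tnfrsf1b 3.87, Cd40 1.16, Tnfrsf10b 0.961 and Tnfrsf19 0.185 CPM per kb. Ltbr was above Fas and Tnfrsf10b above Tnfrsf19 in 12 of 12 libraries, whereas Tnfrsf12a was above Tnfrsf1a, and Tnfrsf1a above Ltbr, in only 6 of 12, and Cd40 above Tnfrsf10b in 7 of 12. Cd40 and Tnfrsf10b did not differ beyond the spread of the libraries. The order of Tnfrsf12a, Tnfrsf1a and Ltbr changed with the group. Their means were 315, 88.2 and 55.2 CPM per kb in HFD + hIRI and 71.1, 44.6 and 40.6 in ND + hIRI. In HFD + sham they were 29.9, 29.2 and 29.8, and in ND + sham 15.8, 23.0 and 33.1. The SD of log2 CPM over the 12 libraries was 1.76 for Tnfrsf12a, 1.18 for Tnfrsf19 and 1.09 for Tnfrsf1b, against a median of 0.287 over all genes.

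**Figure D1:**
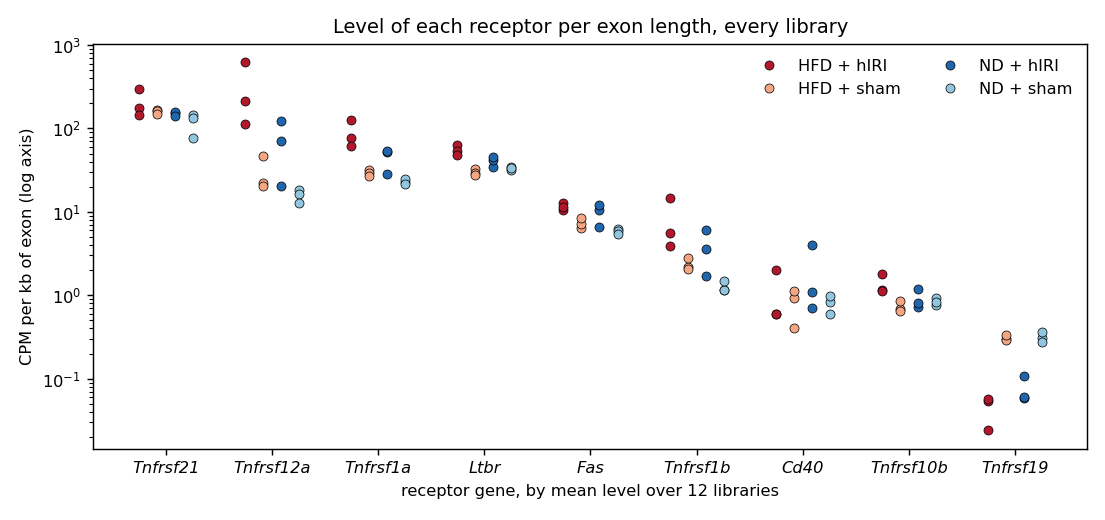
Level of each receptor in CPM per kb of exon (log axis), 1 point per library, coloured by group, with genes ordered by their mean over the 12 libraries. Tnfrsf21 leads with a mean of 159 CPM per kb, Tnfrsf19 is lowest with 0.185, and the points of Tnfrsf12a are the most spread.

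Averaged over both diets, hIRI kidneys had significantly more Tnfrsf12a, Tnfrsf1b, Tnfrsf1a, Fas and Ltbr RNA and less Tnfrsf19 RNA as compared to sham kidneys. The fitted levels were 6.87-fold, 3.20-fold, 2.42-fold, 1.62-fold and 1.51-fold those of sham for the 5 that were higher, and 0.191-fold for Tnfrsf19. In all, 6 of 9 receptors passed an adjusted p of 0.05 (edgeR quasi-likelihood test, Benjamini-Hochberg over 14091 genes), 5 higher and 1 lower, where 12.9% of all genes were called higher and 10.9% lower, 23.7% in all. The median log2 fold change of the 9 receptors was 0.69, against 0.00174 over all genes. Because the 9 were picked with earlier results known, these shares and medians are descriptions and not a test of the family. These 6 calls held in each of 12 fits that left out 1 library. Within the 8 libraries of the higher run alone, where HFD + sham is a single library, none of the 9 receptors was called and 0.0284% of all genes were. There the log2 fold changes were 3.33 for Tnfrsf12a and -2.63 for Tnfrsf19, the edgeR adjusted p of the 6 receptors ran between 0.0643 and 0.143, and 7 of 9 had an unadjusted p under 0.05, as did 22.5% of all genes. In whole kidney, more RNA per cell and more cells of a type cannot be told apart.

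The averaged comparison was one of 7 that the design gave, and the others called fewer receptors or were less stable. In HFD + hIRI against HFD + sham, 7 receptors were called (6 higher, with 11.4% of all genes higher, and 1 lower, with 8.47% lower, and 19.9% in all). No receptor was called in HFD + hIRI against ND + hIRI (1.35% of all genes, 0.532% higher and 0.816% lower), in HFD + sham against ND + sham (0.0142%), in ND + hIRI against ND + sham (0% of all genes), in the diet by hIRI interaction (0.0142%) or in HFD against ND averaged over surgery (2.75%). At an unadjusted p under 0.05 the same edgeR fit gave 5, 0, 6, 1 and 4 receptors in these 5 comparisons, where it gave 27.2%, 8.8%, 14.4%, 10.1% and 23.7% of all genes. DESeq2 called 3 receptors in HFD + hIRI against ND + hIRI (12.6% of all genes), 4 in ND + hIRI against ND + sham (3.15%) and 3 for diet averaged over surgery (10.3%). In the paper's own edgeR results, Tnfrsf1a and Tnfrsf12a were higher in HFD + hIRI than in ND + hIRI at an FDR under 0.05. The paper does not state the kind of edgeR test, so these calls depend on the choice of test. In hIRI against sham the unadjusted counts were 7 receptors on HFD (39.8% of all genes) and 7 averaged over diet (41% of all genes). DESeq2 called 0 receptors in HFD + sham against ND + sham (0.937% of all genes) and in the interaction (0.263%).

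Whether the libraries of the groups overlapped was counted beside the tests. On HFD, 6 receptors lay wholly higher in hIRI than in sham libraries and 1 wholly lower, where 23.1% and 23.6% of all genes did. On ND, the counts were 4 and 1 receptors, where 10.9% and 10.7% of all genes did. In HFD + sham against ND + sham, 5 receptors (Tnfrsf1a, Tnfrsf1b, Tnfrsf12a, Tnfrsf21 and Fas) lay wholly higher and 0 wholly lower, where 12.7% and 12.5% of all genes did. None of the 5 had an unadjusted edgeR p under 0.05. That p uses 1 spread shared by all 4 groups, so it does not measure the spread of the sham libraries alone. With only the libraries compared, 1 receptor was called (1.61% of all genes). The log2 fold changes of these 5 for HFD against ND in sham kidneys were 0.35, 0.88, 0.92, 0.43 and 0.33. The other 4 had -0.20 (Tnfrsf10b), -0.15 (Ltbr), -0.05 (Tnfrsf19) and 0.03 (Cd40), and the edgeR adjusted p of all 9 ran between 0.656 and 0.997.

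The diet difference averaged over surgery had an unadjusted p under 0.05 for 4 receptors, none of which passed the adjustment. Their log2 fold changes for HFD against ND were 1.54 for Tnfrsf12a, 0.99 for Tnfrsf1b, 0.67 for Tnfrsf1a and 0.45 for Tnfrsf21. The remaining values were 0.29 for Fas, 0.19 for Tnfrsf10b, 0.14 for Ltbr and -0.42 for both Tnfrsf19 and Cd40, and the edgeR adjusted p of the 9 ran between 0.0812 and 0.61. After hIRI alone, HFD against ND gave 1.10 for Tnfrsf1b, 0.58 for Tnfrsf10b, 0.46 for Tnfrsf21, 0.25 for Fas, -0.78 for Tnfrsf19 and -0.87 for Cd40, beside Tnfrsf12a, Tnfrsf1a and Ltbr described with their levels. The diet by hIRI interaction, the hIRI difference on HFD minus that on ND, was 1.23 for Tnfrsf12a, 0.78 for Tnfrsf10b, 0.64 for Tnfrsf1a, 0.22 for Tnfrsf1b, 0.03 for Tnfrsf21, -0.72 for Tnfrsf19 and -0.90 for Cd40. With Ltbr and Fas, all 9 interactions had an edgeR adjusted p of 0.486 or more.

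**Figure D2:**
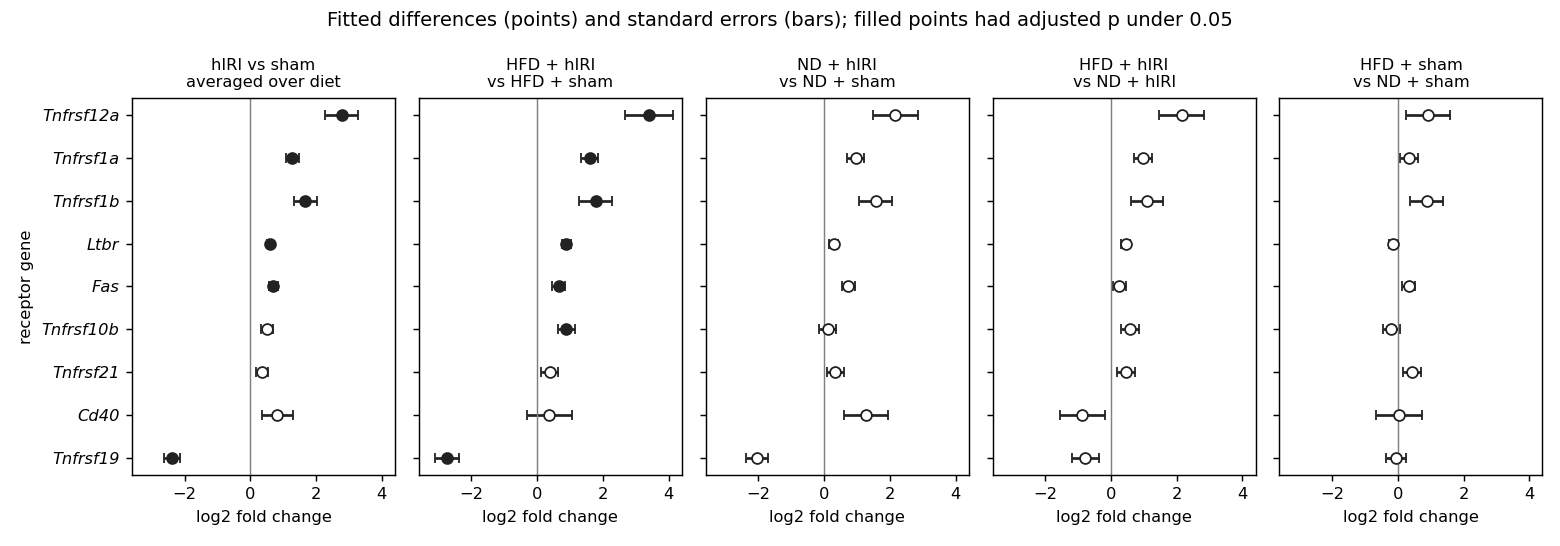
Fitted log2 fold change of each receptor (point) with its standard error (bar) in 5 comparisons, from the edgeR fit over 12 libraries, with filled points for an adjusted p under 0.05. Tnfrsf12a is farthest right and Tnfrsf19 farthest left in each comparison of hIRI with sham, and no point is filled in the ND + hIRI or the diet comparisons.

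Among the receptors without a death domain, Tnfrsf12a (also called Fn14) binds the ligand TWEAK and is known to be induced in injured epithelium. It had 597, 206 and 110 CPM in HFD + hIRI, against 45.5, 21.2 and 19.9 CPM in HFD + sham. The ND + hIRI libraries had 19.7, 67.5 and 119 CPM, against 17.5, 15.9 and 12.4 CPM in ND + sham. Every hIRI library lay above every sham library of its own diet, although ND + hIRI replicate 1, at 19.7 CPM, lay below the 3 HFD + sham libraries. The log2 fold change was 2.78 (SE 0.50) for hIRI against sham averaged over diet (edgeR adjusted p = 0.00888), 3.39 (SE 0.72) on HFD (adjusted p = 0.0189) and 2.17 (SE 0.69) on ND (adjusted p = 0.221). In HFD + hIRI against ND + hIRI it was 2.15 (SE 0.68, adjusted p = 0.095), and the ranges of these groups overlapped. The gene lies at chr17:23675445-23677449 (mm10, minus strand), with 4 exon blocks and 965 exonic bases.

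Tnfrsf1b, the TNF receptor found mainly on leukocytes and endothelium, had 72.5, 27.4 and 19.3 CPM in HFD + hIRI, against 10.9, 10.0 and 13.6 CPM in HFD + sham. On ND, Tnfrsf1b had 8.32, 17.6 and 29.6 CPM in ND + hIRI, against 5.72, 5.65 and 7.31 CPM in ND + sham. The hIRI and sham libraries did not overlap within either diet, and HFD + hIRI replicate 1 stood far above the rest. The log2 fold change averaged over diet was 1.68 (SE 0.36, edgeR adjusted p = 0.0129), and on HFD it was 1.79 (SE 0.50, adjusted p = 0.0339). Without HFD + hIRI replicate 1 the HFD value was 1.02 and was no longer called. The 5 neutrophil markers in the table, led by S100a9 and S100a8, summed to 120, 26.2 and 17.8 CPM in HFD + hIRI, against 12.1, 12.5 and 73.5 CPM in HFD + sham. On ND the sums were 13.6, 33.5 and 55.4 CPM in ND + hIRI and 15.3, 19.0 and 9.5 CPM in ND + sham. The library with the most Tnfrsf1b in each of these groups except ND + sham was also the one with the highest neutrophil sum, and their part in the Tnfrsf1b result was not tested. The 7 macrophage markers summed to 157 to 172 CPM in HFD + hIRI, against 160 to 261 CPM in HFD + sham, and to 105 to 157 CPM in ND + hIRI, against 98.2 to 148 CPM in ND + sham.

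Ltbr, the lymphotoxin beta receptor, which signals through Map3k14 to the non-canonical NF-kB pathway, had 133, 113 and 99.7 CPM in HFD + hIRI, against 67.8, 60.8 and 58.2 CPM in HFD + sham. The ND + hIRI kidneys had 71.8, 87.9 and 94.8 CPM, against 66.1, 71.8 and 70.0 CPM in ND + sham. The groups were apart on HFD, whereas on ND the lowest hIRI library met the highest sham library. The log2 fold change was 0.89 on HFD (SE 0.13, edgeR adjusted p = 0.0114) and 0.29 on ND (SE 0.13, adjusted p = 0.331). The interaction, which tests that difference directly, was 0.60 (SE 0.18) with an unadjusted p of 0.0069 from edgeR but an adjusted p of 0.486. It was the 1 receptor of 9 with an unadjusted interaction p under 0.05, where 10.1% of all genes had one.

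Cd40, a receptor of B cells and antigen-presenting cells, was near the bottom of the range, with 3.61, 1.07 and 1.06 CPM in HFD + hIRI, against 1.64, 0.729 and 2.0 CPM in HFD + sham. On ND, Cd40 had 1.94, 7.21 and 1.25 CPM in ND + hIRI, against 1.06, 1.47 and 1.74 CPM in ND + sham. A single library stood high in each hIRI group and the ranges overlapped throughout. No comparison called Cd40, and the averaged log2 fold change was 0.82 (SE 0.48, edgeR adjusted p = 0.215). The 2 B cell markers in the table summed to 1.45 CPM in ND + hIRI replicate 2, the library with the most Cd40, and to 0.784 to 6.52 CPM over all libraries.

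**Figure D3:**
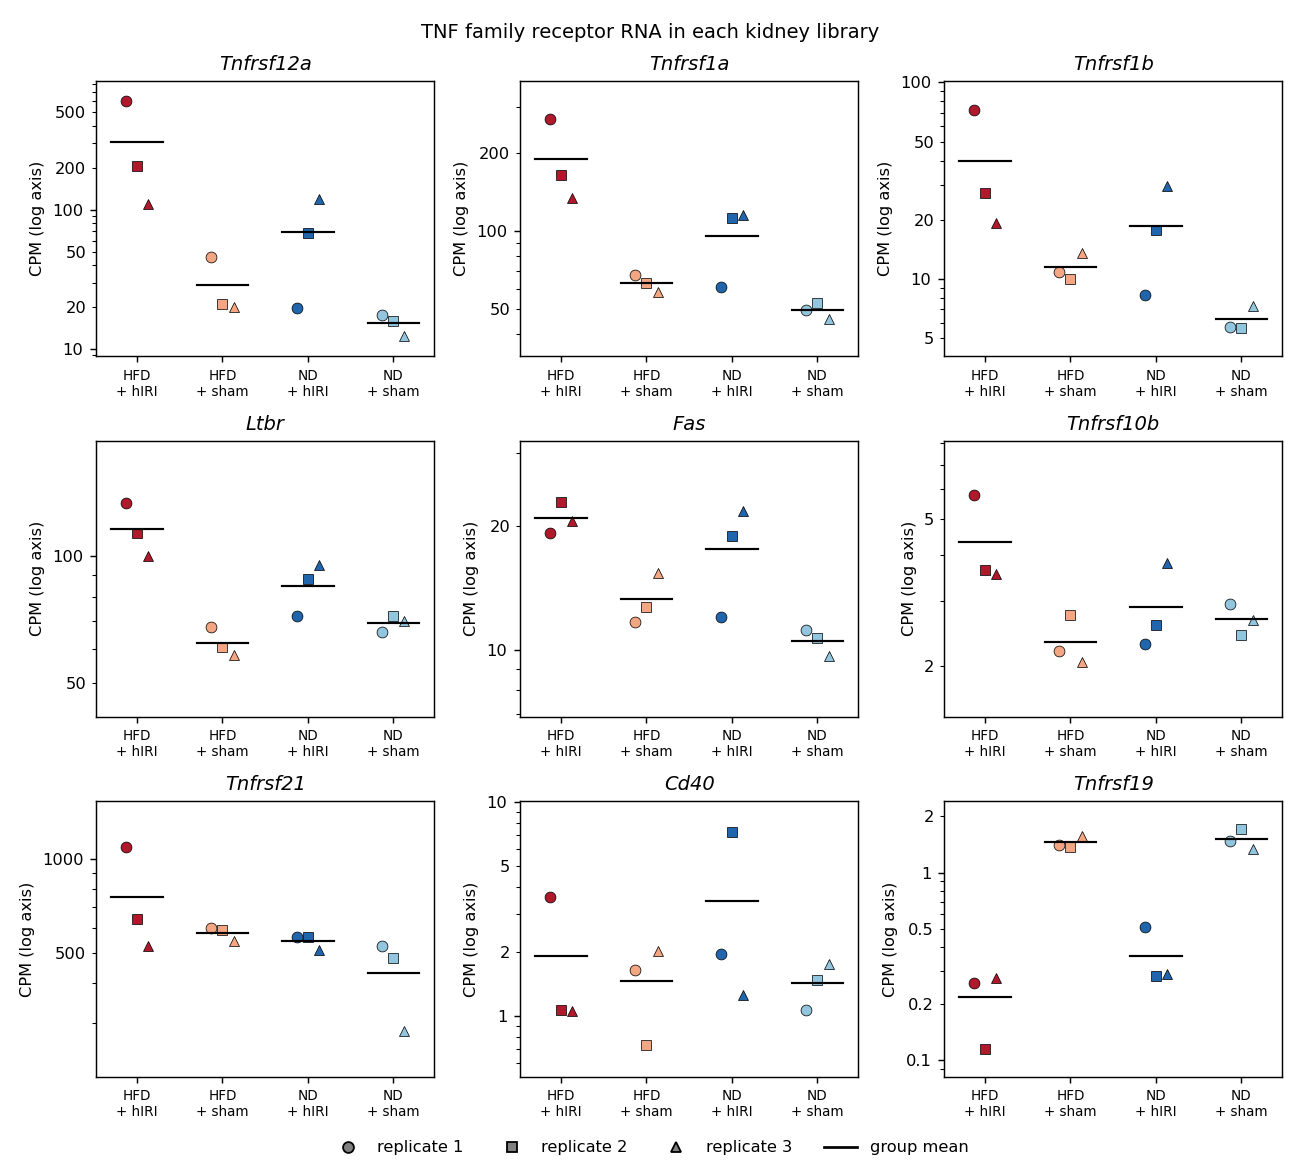
CPM of each receptor in every library (log axis, scaled to each gene), with groups on the horizontal axis, symbols for replicate 1, 2 and 3, and a line at the group mean. All 6 hIRI libraries of Tnfrsf19 (0.115 to 0.515 CPM) lie below all 6 sham libraries (1.33 to 1.72 CPM), while ND + hIRI replicate 1 lies near the sham libraries for Tnfrsf12a, Tnfrsf1a and Fas.

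Among the death domain receptors, Tnfrsf1a, the main TNF receptor of parenchymal cells, had 271, 165 and 134 CPM in HFD + hIRI, against 67.9, 62.9 and 58.1 CPM in HFD + sham. For ND + hIRI the values were 61.2, 112 and 115 CPM, against 49.7, 52.8 and 46.1 CPM in ND + sham. Within each diet all hIRI libraries were above all sham libraries, and the 3 HFD + hIRI libraries were above the 3 ND + hIRI libraries. The log2 fold change averaged over diet was 1.27 (SE 0.19, edgeR adjusted p = 0.00601), with 1.59 (SE 0.27, adjusted p = 0.0128) on HFD and 0.96 (SE 0.27, adjusted p = 0.182) on ND. In HFD + hIRI against ND + hIRI it was 0.98 (SE 0.27), which did not pass the adjustment (adjusted p = 0.077). Tnfrsf1a and Ltbr, at 0.98 and 0.44, were the 2 receptors whose HFD + hIRI libraries all lay above the ND + hIRI libraries, as did those of 12.2% of all genes. Tnfrsf19 was the 1 whose HFD + hIRI libraries all lay below, as did those of 11.5%.

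Fas, the receptor for Fas ligand, had 19.2, 22.9 and 20.5 CPM in HFD + hIRI, against 11.7, 12.7 and 15.4 CPM in HFD + sham. On ND, Fas had 12.0, 18.9 and 21.7 CPM in ND + hIRI, against 11.2, 10.7 and 9.67 CPM in ND + sham. The hIRI libraries were above the sham libraries within both diets. The log2 fold change was 0.65 (SE 0.20, edgeR adjusted p = 0.04) on HFD and 0.74 (SE 0.20, adjusted p = 0.169) on ND. The interaction was -0.08 (SE 0.28), and the averaged value was 0.69 (SE 0.14, adjusted p = 0.0109).

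Tnfrsf10b, the mouse death receptor for TRAIL, had 5.78, 3.63 and 3.55 CPM in HFD + hIRI, against 2.20, 2.74 and 2.04 CPM in HFD + sham. On ND, Tnfrsf10b had 2.30, 2.57 and 3.79 CPM in ND + hIRI, against 2.95, 2.42 and 2.66 CPM in ND + sham. The groups were apart on HFD and mixed on ND. On HFD the log2 fold change of 0.89 (SE 0.26) passed narrowly (edgeR adjusted p = 0.0384), and the averaged value of 0.50 (SE 0.18) did not (adjusted p = 0.0693).

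Tnfrsf21 (also called DR6), the receptor with the highest level per exon length, had 1090, 644 and 525 CPM in HFD + hIRI, against 600, 593 and 546 CPM in HFD + sham. On ND, Tnfrsf21 had 561, 564 and 513 CPM in ND + hIRI, against 527, 481 and 282 CPM in ND + sham. A high HFD + hIRI library and a low ND + sham library stood apart, and the remaining 10 lay between 481 and 644 CPM. No comparison called it, with an averaged log2 fold change of 0.36 (SE 0.19, edgeR adjusted p = 0.167).

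Tnfrsf19 (also called TROY), an orphan receptor known from progenitor cells and as a Wnt target, was the least abundant and the 1 receptor of 9 that was lower in hIRI. It had 0.258, 0.115 and 0.277 CPM in HFD + hIRI, from 5, 3 and 6 counts, against 1.41, 1.37 and 1.58 CPM in HFD + sham, from 43, 32 and 37 counts. On ND, Tnfrsf19 had 0.515, 0.281 and 0.288 CPM in ND + hIRI, from 13, 6 and 6 counts, against 1.47, 1.72 and 1.33 CPM in ND + sham, from 43, 49 and 39 counts. It was the 1 receptor of 9 whose 6 hIRI libraries did not overlap the 6 sham libraries, where 2.42% of all genes lay wholly lower and 2.43% wholly higher in this way. The log2 fold change was -2.39 (SE 0.25, edgeR adjusted p = 0.00433) averaged over diet, -2.75 (SE 0.36, adjusted p = 0.0096) on HFD and -2.03 (SE 0.33, adjusted p = 0.112) on ND. On summed counts the ratio of hIRI to sham was 0.144 on HFD (14 against 112 counts, exact 95% Poisson interval 0.0762 to 0.251) and 0.246 on ND (25 against 131 counts, interval 0.154 to 0.380), which covers counting error only. In the lower run, ND + hIRI replicate 1 had 0.515 CPM and ND + sham replicate 1 had 1.47 CPM. The summed proximal tubule markers were 6840 to 10161 CPM in HFD + hIRI against 10344 to 12003 CPM in HFD + sham. On ND they were 9370 to 10545 CPM in ND + hIRI against 11093 to 11506 CPM in ND + sham. Averaged over diet, 2 of 6 markers were called lower and 0 higher (10.9% and 12.9% of all genes). On HFD alone and on ND alone 0 of the 6 were called. The part of these markers in the Tnfrsf19 result was not tested.

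The 7 calls in HFD + hIRI against HFD + sham rested on single libraries to differing degrees. Without HFD + sham replicate 2 no receptor was called (0.0071% of all genes), without HFD + sham replicate 3 only 1 (0.319%), without HFD + sham replicate 1 only 3 (1.96%), and without HFD + hIRI replicate 1 there were 4 (7.81%), so the share over all genes fell with the receptors. With the library number run as a covariate, Tnfrsf19 alone of the receptors was called (0.128% of all genes), and within the higher run there were 0 calls (0%). Tnfrsf10b and Fas were each called in 4 of 12 fits that left out 1 library, Tnfrsf1b in 8, Tnfrsf12a in 9, Tnfrsf1a and Ltbr in 10 and Tnfrsf19 in 11. On ND, leaving out ND + hIRI replicate 1, the library that lay among the sham libraries, gave 4 calls (3.77% of all genes) where the fit with all libraries gave 0 (0%).

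Ltbr and Tnfrsf1a are close neighbours on chromosome 6, with Scnn1a between them. Ltbr lies at chr6:125306571-125313870 on the minus strand and Tnfrsf1a at chr6:125349723-125362483 on the plus strand (mm10). Scnn1a, a subunit of the epithelial sodium channel, at chr6:125321340-125344942 on the plus strand, had 150 ± 0.444 CPM in HFD + hIRI, against 172 ± 12.9 CPM in HFD + sham, and 155 ± 20.1 CPM in ND + hIRI, against 132 ± 30.1 CPM in ND + sham (SD, n = 3 each). Its averaged log2 fold change was 0.01 (SE 0.11, edgeR adjusted p = 0.933), beside 0.59 for Ltbr and 1.27 for Tnfrsf1a. Plekhg6, next to Tnfrsf1a on the other side, was not called (0.42, SE 0.23, adjusted p = 0.19), and neither was E130112N10Rik, the nearest gene of the table on the other side of Ltbr (-0.63, SE 0.39, adjusted p = 0.238).

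The genes whose levels ran closest to those of the 3 most variable receptors were found by the root mean square difference of log2 CPM over the 12 libraries, after each gene's mean was removed. For Tnfrsf12a they were Mt1, a metallothionein (0.265), Dusp8, a phosphatase of MAP kinases (0.304), and Socs3, a feedback inhibitor of cytokine signaling (0.328). For Tnfrsf1b they were Pxdc1 (0.211), Trib1, a pseudokinase (0.244), and Tmem173, which encodes STING (0.245). For Tnfrsf19 they were 9130409J20Rik (0.412), Hhip, an inhibitor of hedgehog signaling (0.437), and Sfrp1, a secreted Wnt antagonist (0.447). These likenesses are descriptions over libraries that share the same groups. In the averaged comparison Mt1, Dusp8 and Socs3 had log2 fold changes of 2.73, 3.20 and 2.71, beside 2.78 for Tnfrsf12a, and Hhip had -2.46 and Sfrp1 -1.32, beside -2.39 for Tnfrsf19.

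Of 17 listed ligands, which are not every ligand of the family, 8 were measured. Tnf itself, the ligand of the TNF receptors Tnfrsf1a and Tnfrsf1b, was not listed. Fasl, Cd40lg, Lta and Tnfsf14 were listed but not measured, so no ligand of Fas or Cd40 was measured. In the averaged comparison 3 of the 8 measured ligands fell and 0 rose, with a median log2 fold change of -0.53. Of all genes, 10.9% were called lower and 12.9% higher. The 3 were Tnfsf15, also called TL1A (-0.79, edgeR adjusted p = 0.0273), Tnfsf10, which encodes TRAIL, the ligand of Tnfrsf10b (-0.68, adjusted p = 0.0299), and Eda, the ligand of the ectodysplasin receptors (-0.70, adjusted p = 0.0439). Tnfsf10 was the most abundant of them, with 41.4 ± 12.7 CPM in HFD + hIRI, against 83.0 ± 12.2 CPM in HFD + sham, and 78.8 ± 28.6 CPM in ND + hIRI, against 101 ± 6.63 CPM in ND + sham (SD, n = 3 each). Tnfsf12, which encodes TWEAK, the ligand of Tnfrsf12a, had a log2 fold change of -0.38 (SE 0.13) and missed the threshold (edgeR adjusted p = 0.0514). Among 11 measured of 19 other family receptors, 0 rose and 1 fell (12.9% and 10.9% of all genes), Tnfrsf11a, the receptor of RANKL (-0.49, adjusted p = 0.0251). The median log2 fold change of these 11 was -0.049.

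Genes that carry or restrain the receptors' signals were called higher in part, beside 12.9% of all genes called higher and 10.9% called lower. The counts do not separate carriers from inhibitors. The genes named from each list are those with the smallest p. Of 11 death domain adaptors and caspases, 5 rose and 0 fell (median 0.37), among them Casp8, the initiator caspase (0.81, edgeR adjusted p = 0.0101), Ripk3, a kinase of necroptosis (1.00, adjusted p = 0.0141), and Mlkl, its substrate (1.77, adjusted p = 0.0247). Of 16 genes of the IKK complex, NF-kB subunits and inhibitors, 7 rose and 0 fell (median 0.44), among them Chuk, an IKK subunit (0.48, adjusted p = 0.0113), Rela, an NF-kB subunit (1.09, adjusted p = 0.0209), and Map3k14, the kinase of the non-canonical pathway (1.23, adjusted p = 0.022). Of 17 TRAF proteins and ubiquitin regulators, 5 rose and 0 fell (median 0.10), among them Tnip2 (0.89, adjusted p = 0.0138), Tank (0.76, adjusted p = 0.0141) and Traf6 (0.25, adjusted p = 0.0204).

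Of 5 genes of receptor shedding, 2 rose and 0 fell in the averaged comparison (12.9% and 10.9% of all genes), the inactive rhomboids Rhbdf1 (0.81, edgeR adjusted p = 0.0114) and Rhbdf2 (1.60, adjusted p = 0.0116), which help the sheddase Adam17 mature. Adam17 itself had a log2 fold change of -0.09 (adjusted p = 0.354). Leaving out single libraries moved the counts of genes that rose to between 2 and 6 for the adaptors, between 1 and 10 for the IKK and NF-kB list, between 2 and 7 for the TRAF list and between 2 and 3 for shedding, while 9.89% to 35.3% of all genes were called in these fits. The low end was reached in 6 of 12 fits for the adaptors and in 3 of 12 each for the IKK and TRAF lists. For the IKK list these were the fits without HFD + sham replicate 2, HFD + sham replicate 3 or ND + hIRI replicate 3, and for the TRAF list those without HFD + sham replicate 1, HFD + sham replicate 2 or ND + hIRI replicate 3. For the adaptors they were the fits without HFD + sham replicate 1, 2 or 3, ND + hIRI replicate 2 or ND + sham replicate 1 or 3. The ligands that fell numbered 0 to 4, and among the other family receptors 0 to 1 rose and 0 to 2 fell, with 0 lower in 5 of 12 fits. Within the higher run no gene of any list was called.

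**Figure D4:**
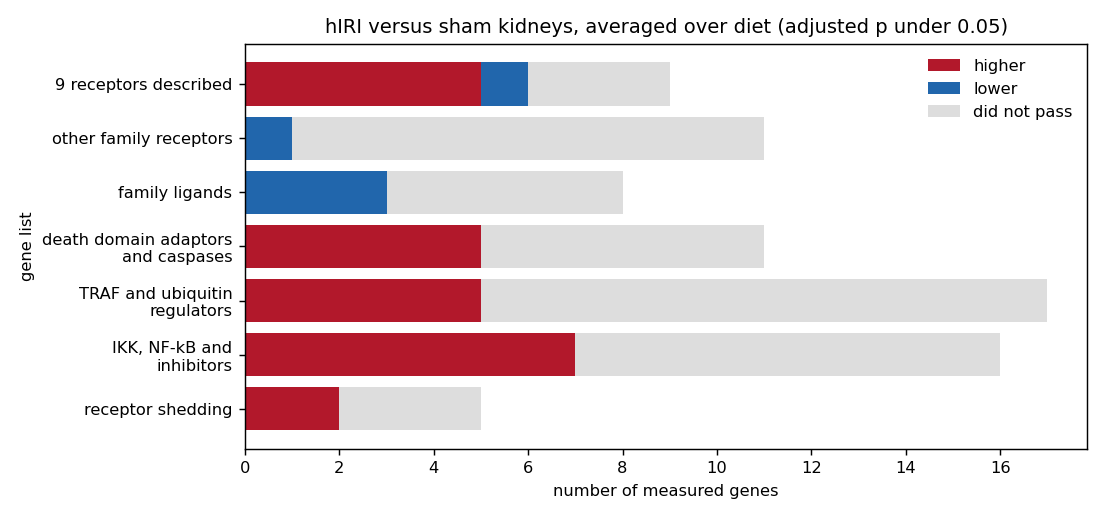
Number of measured genes in each list that were higher (red), lower (blue) or did not pass an adjusted p of 0.05 (grey) in hIRI against sham kidneys averaged over diet. Of 9 receptors 5 were higher and 1 lower, of 8 ligands 3 were lower and none higher, and of 16 IKK and NF-kB genes 7 were higher.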

How the data were processed

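Kidney RNA from 12 mice in 4 groups of 3 was analysed; liver data were not used here. The submitters' processing notes name FastQC 0.11.5, STAR 2.7.10a, featureCounts (Subread 2.0.3), edgeR 3.42.4 and mm10; the annotation, the strand setting and the low-count filter were not stated in the sources used here, so reads of overlapping antisense genes cannot be told apart. The deposited values are whole-number counts per gene that the authors made from aligned reads. The deposited log2 CPM values were not used. The deposited table also holds the authors' log2 and linear fold changes, p-values and FDR values, and none of these entered the fits here.

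Counts were scaled by TMM in edgeR 4.0.16 (R 4.3.3), and filterByExpr removed 0 of 14091 genes. A robust quasi-likelihood fit with 1 mean per group over all 12 libraries gave 7 comparisons, with Benjamini-Hochberg adjustment over all genes and a threshold of 0.05. The standard error is the size of the log2 fold change divided by the square root of F. Log2 CPM used a prior count of 2, and CPM per kb used the exon lengths of the table. The labels give 3 mice per group, and libraries were treated as separate mice. Pairs of libraries differed by a chi-square per gene of 34.2 to 163 in HFD + hIRI, 9.44 to 19.3 in HFD + sham, 36.6 to 78.4 in ND + hIRI and 35.5 to 47.8 in ND + sham, while the fit shared 1 estimate of the spread. Same-numbered libraries deviated together between ND + hIRI and ND + sham (correlations 0.17, 0.196 and 0.197). The replicate block, fitted over all 4 groups, left the 0 calls there as they were. In no other pair of groups were all 3 correlations over 0.1. The script was tested on simulated data. All 9 receptors are named in every comparison; in each list up to 3 called genes per direction by smallest p; for the 3 most variable receptors the 3 genes most alike; the genes of the table next to Tnfrsf1a and Ltbr; and the 2 most abundant markers per cell type. Tnfrsf11a, Rhbdf1 and Rhbdf2 fall under this rule, and Tnfsf12 and Adam17 were added after their values were seen. Members and lists were chosen with earlier results of these data known. Alternatives were DESeq2 1.42.0, voom in limma 3.58.1, other scalings and filters, a replicate block, the library run as a covariate and leaving out libraries.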

Additional observations from a re-analysis of the deposited data

How the results depend on the processing

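Counting error limits Tnfrsf19, Cd40 and Tnfrsf10b most. The replicate block gave 6 receptors for hIRI against sham averaged over diet (17.7% of all genes) and 5 for HFD + hIRI against HFD + sham (13.3%), where Tnfrsf1b and Tnfrsf10b were no longer called. Over all groups, same-numbered libraries had pair correlations of -0.417 to 0.215 (6 of 18 over 0.1, 6 of 12 libraries best with their own number). Only between ND + hIRI and ND + sham did all 3 correlations exceed 0.1. No fit paired these groups alone, so pairing there was not tested by itself. In both groups replicate 1 is in the lower run and replicates 2 and 3 are in the higher run. Shared deviation by pair and by run therefore cannot be told apart there. The block, fitted over all 4 groups, called 0 receptors in ND + hIRI against ND + sham (0% of all genes), as did the fit without it. The 6 averaged calls held in every alternative that tested the gene, except within the 8 libraries of the higher run (0 calls). Tnfrsf19 was not tested with at least 10 counts in every library. The cause of the other changes was not tested.

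Shares in parentheses are of all genes tested. DESeq2 called 3 receptors in HFD + hIRI against ND + hIRI (12.6%), 4 in ND + hIRI against ND + sham (3.15%) and 3 in HFD against ND averaged over surgery (10.3%), and voom with sample quality weights called 1 (5.7%), 4 (4.94%) and 1 (10.6%). In HFD + hIRI against HFD + sham the count of 7 became 1 with the library number run as a covariate (0.128%), 4 with only the libraries compared (5.98%) and 0 in the higher run (0%). With only the libraries compared, 1 was called in HFD + sham against ND + sham (1.61%). Without replicate 1 of both hIRI groups, a setting chosen after the data were seen, as was the higher run, 6 were called in ND + hIRI against ND + sham (16.5%) and 1 for diet averaged over surgery (4.01%). Leaving out single libraries gave 0 to 3 calls in HFD + hIRI against ND + hIRI (0.0284% to 18.2%), 0 to 7 in HFD + hIRI against HFD + sham (0.0071% to 33.7%), 0 to 4 in ND + hIRI against ND + sham (0% to 3.77%), 0 to 3 for diet averaged over surgery (0.27% to 10.4%) and 6 to 7 for hIRI averaged over diet (9.89% to 35.3%).

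The sign of a log2 fold change turned only for values that were not called. The Tnfrsf21 interaction was -0.11 with library totals alone, -0.060 with upper quartile scaling, -0.00319 with at least 10 counts, -0.082 with voom, -0.25 with quality weights, -0.072 with the replicate block, -0.31 without both replicates 1, -0.031 in the higher run, and -0.33 to 0.26 leaving out single libraries. The Tnfrsf1b interaction was -0.34 with quality weights, -0.12 with the run covariate, -0.90 without both replicates 1, -0.32 in the higher run, and -0.55 to 0.73 leaving out single libraries. Cd40 in HFD + hIRI against HFD + sham was -0.23 with quality weights, -0.14 with the run covariate, -0.454 without both replicates 1, -0.0793 in the higher run, and -0.46 to 0.67 leaving out single libraries. Cd40 in HFD + sham against ND + sham was -0.0392 with voom, -0.0533 with quality weights and -0.24 to 0.35 leaving out single libraries. Without both replicates 1, Tnfrsf1b in HFD + hIRI against ND + hIRI was -0.014, the Tnfrsf12a interaction -0.16 and Tnfrsf10b for diet averaged over surgery -0.014. In the higher run, Tnfrsf19 in HFD + sham against ND + sham was 0.047. Leaving out single libraries, it ran between -0.14 and 0.050, Cd40 in HFD + hIRI against ND + hIRI between -1.70 and 0.24, Cd40 for diet averaged over surgery between -0.83 and 0.14, the Cd40 interaction between -1.73 and 0.20, the Fas interaction between -0.29 and 0.10, and Tnfrsf10b in ND + hIRI against ND + sham between -0.14 and 0.25.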
